A study of Mus musculus with 6 samples.

Results

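Scx, Mkx and Tnmd, genes of tendon and ligament, and Cilp and Cilp2, genes of disc and cartilage matrix, were 5 of the 43472 gene symbols counted in RNA of mouse intervertebral discs (IVDs). They were taken by symbol, with earlier results of these data known, and all 5 passed the filter on low counts that left 16152 genes to test. The RNA came from IVDs spanning T8 to L5 of C57B6/J mice at postnatal day 20, as 3 control and 3 Col2Cre;Adgrg6 f/f (mutant) libraries, each a pool of 2 to 3 mice. The controls are called wild type in the genotype labels and Col2Cre controls in the sample titles, and the paper describes them as Cre (-) littermates. Adgrg6, named Gpr126 in the labels and the count files, encodes an adhesion G protein-coupled receptor. Col2Cre recombines in the whole IVD and also in periosteum and trabecular bone of the spine, so the deletion is not limited to the annulus fibrosus.

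The annulus fibrosus is the lamellar collagen ring around the nucleus pulposus, and its outer layers resemble tendon and ligament in their cells and matrix. Scx is a basic helix-loop-helix transcription factor that marks tendon and ligament progenitors and binds DNA at E-boxes, and Mkx (Mohawk) is a homeobox factor needed for the collagen fibrils of tendon and outer annulus. Tnmd (tenomodulin) is a membrane protein of maturing tendon cells and the closest relative of Cnmd (chondromodulin), which marks cartilage. Cilp is a secreted matrix protein of disc and cartilage that binds transforming growth factor beta, and Cilp2 is its relative in cartilage matrix.

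The IVDs expressed markers of their main compartments. Summed over 13 chondrocyte genes the level was between 87217 and 152140 CPM (counts scaled to a common library size) in every library. Col2a1 made up most of this sum, at 62708 to 124063 CPM. Summed over 8 nucleus pulposus genes the level was between 2423 and 5842 CPM. Car3 was the highest of them, at 1267 to 3520 CPM, and the keratin Krt19 lay between 333 and 834 CPM. Foxa2 was at 11.4 to 33.6 CPM and Shh at only 0.32 to 2.39 CPM. Adgrg6 itself was at 123.6, 108 and 94.3 CPM in the controls and at 138, 123.6 and 106 CPM in the mutants (log2 fold change 0.17, SE 0.18, edgeR adjusted p = 0.849), and a count over the whole gene does not measure the deleted part. Control replicate 1 stood apart in skeletal muscle RNA, with 16 muscle genes summing to 5649 CPM against 224 to 344 CPM in the other libraries, so each member is also given without it. Libraries held 9061491 to 12017008 counts on genes.

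The regions around the gene starts are shown for the members that the RefSeq promoter table holds, because Scx is itself an E-box binding factor. The table (GRCm38.p6, 250 bases before to 50 bases after the start) held 3 of the 5 members. Tnmd is read on the plus strand at chrX:133850758-133851057, Cilp on the plus strand at chr9:65264930-65265229 and Cilp2 on the minus strand at chr8:69887343-69887642. Each sequence runs 5′ to 3′, and capitals mark the E-box letters CANNTG, a motif that reads the same on both strands.
Tnmd: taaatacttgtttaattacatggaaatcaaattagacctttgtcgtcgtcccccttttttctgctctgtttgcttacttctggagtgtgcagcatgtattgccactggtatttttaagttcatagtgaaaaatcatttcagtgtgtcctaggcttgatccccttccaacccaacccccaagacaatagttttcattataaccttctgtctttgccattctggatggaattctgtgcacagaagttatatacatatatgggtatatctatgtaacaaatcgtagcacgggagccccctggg
Cilp: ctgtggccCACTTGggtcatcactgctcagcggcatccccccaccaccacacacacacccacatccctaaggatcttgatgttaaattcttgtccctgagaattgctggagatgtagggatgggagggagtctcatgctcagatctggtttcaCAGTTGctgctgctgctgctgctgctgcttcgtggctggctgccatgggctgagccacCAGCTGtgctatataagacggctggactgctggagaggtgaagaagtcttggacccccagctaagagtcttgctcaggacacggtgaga
Cilp2: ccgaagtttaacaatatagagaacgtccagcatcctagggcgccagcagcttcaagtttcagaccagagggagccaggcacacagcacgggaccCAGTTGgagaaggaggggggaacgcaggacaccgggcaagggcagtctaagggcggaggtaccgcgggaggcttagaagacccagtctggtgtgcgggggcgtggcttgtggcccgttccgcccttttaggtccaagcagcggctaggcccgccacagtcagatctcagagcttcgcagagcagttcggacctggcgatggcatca
The RefSeq start is the first base of the GENCODE gene for Cilp, but lies 28 bases into it for Tnmd and 295 bases into it for Cilp2, so the Cilp2 window is wholly inside the GENCODE gene. The Tnmd window had 0 matches. Counted from the RefSeq start, the 3 boxes of Cilp began at positions -242, -97 and -39, and the box of Cilp2, with the letters of the middle box of Cilp, began at -156. Of 32851 promoter windows of the same 300 bases, 72.31% held at least 1 such motif and 17.61% held 3 or more, so the motif is common. A match here is a description of the letters only.

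The members differed widely in level. Per kilobase of the longest coding transcript (RPKM), the mean over controls and over mutants was 638 and 588 for Cilp2, 320 and 244 for Cilp, 40.0 and 55.2 for Scx, 22.6 and 43.9 for Tnmd, and 11.1 and 10.99 for Mkx. The matrix genes Cilp2 and Cilp ranked 34 and 68 among all genes by mean CPM, and Scx, Tnmd and Mkx ranked 3280, 3632 and 4059. In this order Cilp2 was above Cilp, Cilp above Scx and Tnmd above Mkx in 6 of 6 libraries. Scx was above Tnmd in 5 of 6 libraries, but in only 2 of 6 when the union of all annotated exons of Scx (2007 bases) was used in place of its coding transcript (1035 bases), so the order of these neighbours is not settled by the data.

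**Figure D1:**
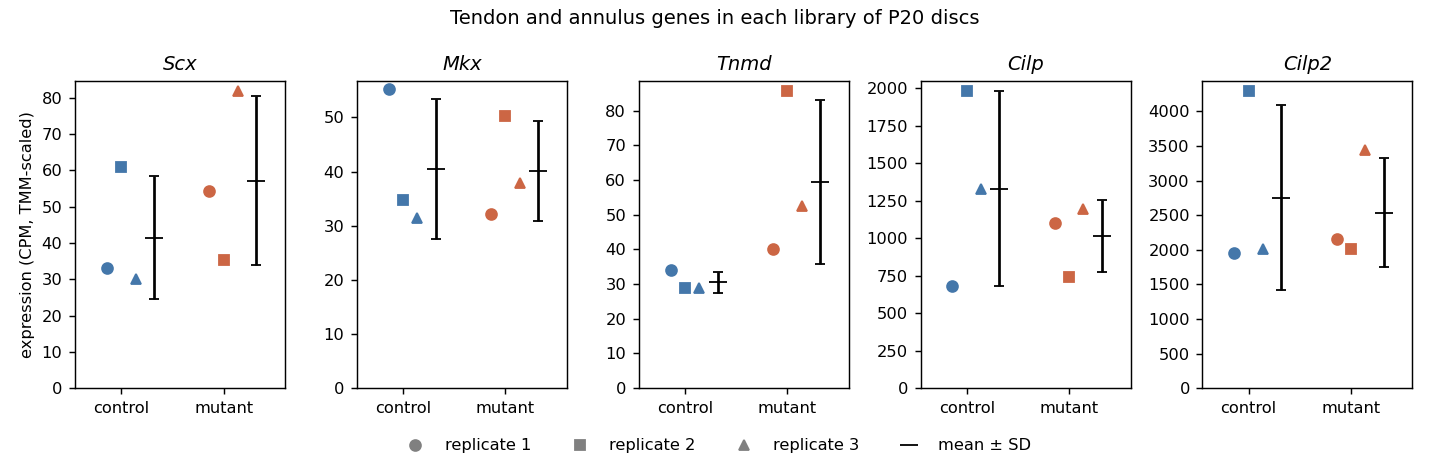
Expression of each member in CPM (linear axes from 0, one scale per gene) in the 3 control and 3 mutant libraries, with symbols for the replicate and bars for the mean ± SD. Tnmd was between 28.8 and 34.0 CPM in the controls and between 40.1 and 85.6 CPM in the mutants, while the groups overlapped for the other 4 genes.

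Neither transcription factor had an unadjusted or adjusted edgeR p under 0.05 with the filter and all 6 libraries. Scx (ENSMUSG00000034161.8, chr15:76457452-76459458, plus strand, GRCm38 with GENCODE M21) was at 33.2, 60.8 and 30.2 CPM in control replicates 1, 2 and 3 and at 54.4, 35.4 and 81.7 CPM in mutant replicates 1, 2 and 3. Its groups overlapped, with the second highest value in a control and the third lowest in a mutant. The means were 41.4 ± 16.9 and 57.2 ± 23.3 CPM (SD, n = 3 each), a log2 fold change of 0.47 (SE 0.33, edgeR adjusted p = 0.788) whose interval of 2 SE ran from -0.20 to 1.13. Leaving out control replicate 1 gave 0.35, leaving out mutant replicate 3 gave 0.12 and leaving out control replicate 2 gave 0.84 (edgeR unadjusted p = 0.0249, adjusted p = 0.854), so single libraries decided its size. Leaving out mutant replicate 2 gave 0.73 (edgeR unadjusted p = 0.0400, adjusted p = 0.493), and with no filter on low counts it was 0.48 (edgeR unadjusted p = 0.0403, adjusted p = 0.545). The whole Scx locus lies inside the span of Bop1, a ribosome biogenesis gene on the opposite strand, with 0 shared exon bases. Bop1 had 1.69 to 2.46 times the counts of Scx in each library and a log2 fold change of 0.40 (SE 0.23, edgeR adjusted p = 0.743). It was at 81.6, 104.6 and 72.8 CPM in the controls and at 122.9, 81.0 and 138.4 CPM in the mutants. Like Scx, it was lowest in control replicate 3 and highest in mutant replicate 3. The strand setting of the counting is not given, and the part of Bop1 reads in the Scx counts was not tested.

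Mkx (ENSMUSG00000061013.6, chr18:6934518-7004780, minus strand) was at 55.3, 34.8 and 31.4 CPM in the controls and at 32.2, 50.4 and 37.8 CPM in the mutants. Control replicate 1 and mutant replicate 2 were the highest, and the means of 40.5 ± 12.98 and 40.1 ± 9.29 CPM were nearly equal. The log2 fold change was -0.01 (SE 0.25, edgeR adjusted p = 0.995) with an interval of 2 SE from -0.50 to 0.49, and it took either sign among the alternatives, reaching 0.30 without control replicate 1 (edgeR unadjusted p = 0.206). Annotated exons of Mkx share 201 bases with AC148004.2, a transcript on the same strand that was not counted as a symbol of its own. Within libraries, the log2 ratio of Scx to Mkx counts was -0.74, 0.81 and -0.05 in the controls and 0.76, -0.51 and 1.11 in the mutants, a difference of 0.45 (two-sided exact permutation test, p = 0.6).

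Tnmd was the member whose groups did not overlap. Tnmd (ENSMUSG00000031250.8, chrX:133850980-133865577, plus strand) was at 34.0, 28.8 and 28.8 CPM in the controls and at 40.1, 85.6 and 52.6 CPM in the mutants. The controls lay close together and the mutants spread upward, most of all replicate 2. The mean went from 30.5 ± 3.02 to 59.4 ± 23.5 CPM (SD, n = 3 each), a fold of 1.95 or a log2 fold change of 0.96 (SE 0.26, interval of 2 SE 0.45 to 1.48). The unadjusted edgeR p was 0.00376, but after Benjamini-Hochberg adjustment over all 16152 genes it was 0.629, so Tnmd was not called. With no filter on low counts, edgeR gave an adjusted p of 0.00734, the lowest of the 11 alternatives, of which the highest was 0.999. The log2 fold change was 1.07 without control replicate 1, the library with muscle RNA, and it was 0.62 without mutant replicate 2 (edgeR unadjusted p = 0.0105).

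Its cartilage relative Cnmd did not pass the test. Cnmd was at 1586, 2321 and 1709 CPM in the controls and at 1751, 1561 and 1447 CPM in the mutants, with a log2 fold change of -0.24 (SE 0.24, edgeR adjusted p = 0.843). The log2 ratio of Tnmd to Cnmd counts within a library, which needs no scaling between libraries, was -5.54, -6.33 and -5.89 in the controls and -5.45, -4.19 and -4.78 in the mutants. All 3 mutant ratios were above all 3 control ratios, though mutant replicate 1 only by a little. The means were -5.92 ± 0.40 and -4.81 ± 0.63, a difference of 1.11 (two-sided exact permutation test, p = 0.1, the smallest that 3 against 3 can give, and 0.3 after adjustment over the 3 ratios tested).

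**Figure D2:**
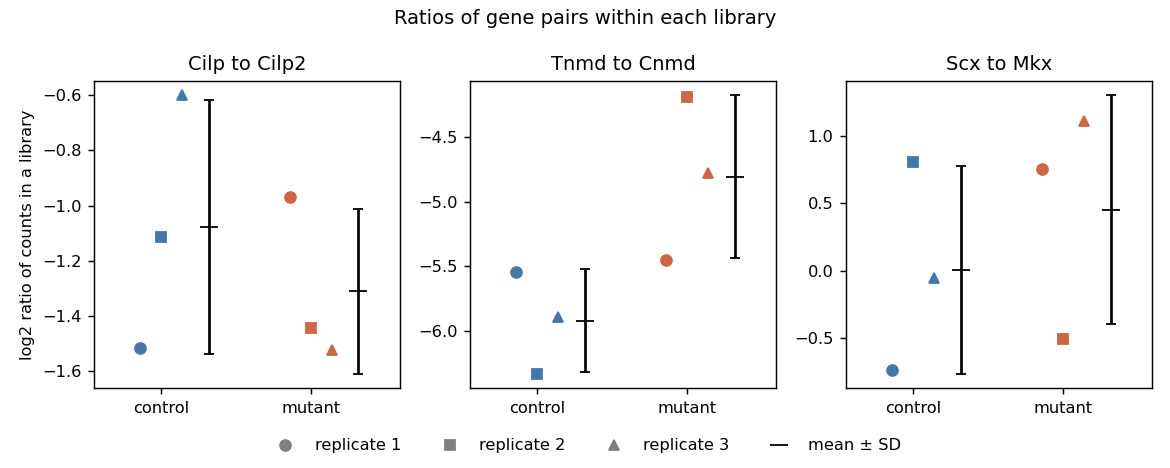
Log2 ratios of the counts of 2 genes within each library (not from 0), one panel per pair, with bars for the mean ± SD over 3 libraries. The ratio of Tnmd to Cnmd was between -6.33 and -5.54 in the controls and between -5.45 and -4.19 in the mutants, and the ratios of Cilp to Cilp2 and Scx to Mkx overlapped between groups.

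The matrix proteins Cilp and Cilp2 were abundant and varied strongly among controls. Cilp (ENSMUSG00000042254.14, chr9:65265180-65280605, plus strand) was at 683, 1982 and 1327 CPM in the controls and at 1102, 741 and 1195 CPM in the mutants. The controls held both the lowest and the highest value, which differed 2.90-fold, and the mutants fell between them. Every library held 6381 counts or more of Cilp. The means were 1331 ± 649 and 1013 ± 240 CPM, a log2 fold change of -0.39 (SE 0.36, edgeR adjusted p = 0.826, interval of 2 SE -1.12 to 0.33). The estimate was -0.69 without control replicate 1 (edgeR unadjusted p = 0.0395, adjusted p = 0.315) and 0.000113 without control replicate 2.

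Cilp2 (ENSMUSG00000044006.8, chr8:69880369-69887687, minus strand) was at 1956, 4294 and 2009 CPM in the controls and at 2156, 2016 and 3439.6 CPM in the mutants. One library of each group was high, control replicate 2 and mutant replicate 3, and the other four lay between 1956 and 2156 CPM. The same libraries were the highest of their groups for Scx. The log2 fold change of Cilp2 was -0.12 (SE 0.37, edgeR adjusted p = 0.955, interval of 2 SE -0.85 to 0.61), and leaving out control replicate 1 gave -0.29, control replicate 2 gave 0.35 and mutant replicate 3 gave -0.39. The log2 ratio of Cilp to Cilp2 was -1.52, -1.12 and -0.60 in the controls and -0.97, -1.44 and -1.53 in the mutants, a difference of -0.24 (two-sided exact permutation test, p = 0.6).

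**Figure D3:**
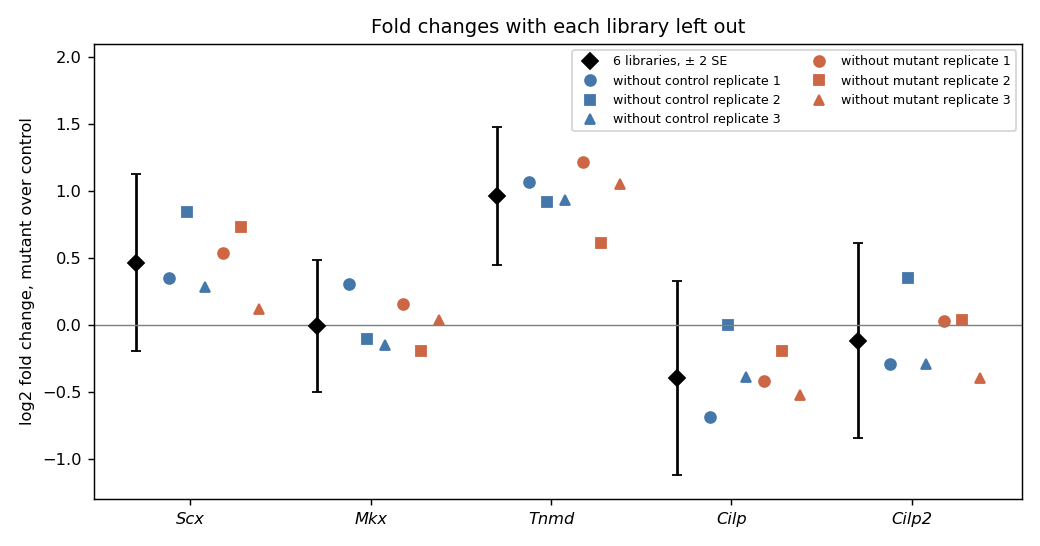
Log2 fold changes of mutant over control (edgeR) for each member with all 6 libraries (diamonds, bars of ± 2 SE) and with each library left out in turn. Tnmd stayed between 0.62 and 1.21, while Cilp2 ranged from -0.39 to 0.35 and Mkx from -0.19 to 0.30.

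Counted together, 0 of the 5 members had an edgeR adjusted p under 0.05, where 0.00619% of all genes tested did (1 gene). One of 5, Tnmd, had an unadjusted p under 0.05, beside 7.21% of all genes, and it was higher in mutants as 2.89% of all genes were, while 4.32% were lower. DESeq2 and limma-voom called 0 of 5 after adjustment too, and edgeR with no filter called 1. Tnmd was also 1 of 5 with all mutant libraries above all controls, beside 5.45% of all genes, and 0 of 5 lay below, beside 5.96%. The median log2 fold change was -0.01 over the members and -0.01 over all genes. The libraries are pools, so these p-values measure the spread between pools. In RNA of a whole tissue, more cells of a type and more RNA per cell cannot be told apart.

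Other matrix genes of tendon and annulus, in lists chosen with earlier results of these data known, were examined beside the members. Of 17 tendon matrix genes, 9 had an unadjusted edgeR p under 0.05 and were higher, 0 were lower at that threshold, and 7 did not overlap between groups, with a median log2 fold change of 0.80. Over all genes tested 2.89% were higher, 4.32% lower and 5.45% had all mutants above all controls. Thbs4, a thrombospondin of tendon matrix, was at 113, 72.7 and 62.9 CPM in the controls and 148, 200.3 and 180.3 CPM in the mutants (log2 fold change 1.09, SE 0.24, edgeR unadjusted p = 0.00114, adjusted p = 0.553). Postn (periostin, which aids collagen assembly) went from 63.5 ± 26.0 to 143 ± 7.49 CPM (1.17, SE 0.26, edgeR unadjusted p = 0.00114, adjusted p = 0.553). The others were Tnc (0.96), Thbs2 (0.84), Col5a1 (0.80), the collagen crosslinking enzyme Lox (0.75), Col1a1, Col3a1 and Col14a1. None had an adjusted p under 0.05 in edgeR with the filter and all 6 libraries. With no filter the edgeR adjusted p was 0.00233 for Thbs4, 0.000967 for Postn, 0.0169 for Tnc and 0.0388 for Thbs2, and in DESeq2 it was 0.00404 for Thbs4, 0.00386 for Postn and 0.0266 for Col5a1. Without control replicate 1 the edgeR adjusted p was 0.0389 for Thbs4, 0.0187 for Postn and 0.0361 for Tnc. The small proteoglycans Fmod, Dcn, Lum, Kera and Bgn did not pass, and Comp, which is abundant in both tendon and cartilage, had a log2 fold change of -0.40 (SE 0.31, edgeR adjusted p = 0.804). Without control replicate 1 the count was 10 of 17 beside 5.25% of all genes, without control replicate 3 it was 6 beside 1.76%, and without mutant replicate 2 it was 6 beside 4.73%. The median of the list was 1.01, 0.61 and 0.62 in these fits. Thbs2 (0.69 and 0.62) and Lox (0.58 and 0.63) had an unadjusted p above 0.05 without control replicate 3 and without mutant replicate 2.

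Of 12 annulus matrix and surface genes, 6 were higher and 1 lower at an unadjusted edgeR p under 0.05, beside 2.89% and 4.32% of all genes, with a median of 0.46. The higher ones were Sfrp2, a secreted Wnt modulator at only 2.57 to 10.5 CPM (1.20), Aspn, the elastic fibre protein Eln (0.72), Igfbp5, which binds insulin-like growth factors (0.66), Ogn (0.59) and the surface protein Mcam (0.50), and the lower one was Fbln1 (fell by 0.46 on the log2 scale). Sfrp2 was highest in mutant replicate 1, without which it was 0.63 (edgeR unadjusted p = 0.234, adjusted p = 0.946). Fbln1 was -0.24 without control replicate 2 (edgeR unadjusted p = 0.242, adjusted p = 0.883). Its unadjusted p was also above 0.05 without mutant replicate 1 (-0.41), mutant replicate 2 (-0.38) or mutant replicate 3 (-0.53). The replicate block took the unadjusted p of Sfrp2 and Fbln1 above 0.05 with estimates of 1.05 and -0.44, as did limma-voom for Sfrp2 (0.96) and DESeq2 for Fbln1 (-0.44). Mcam had an unadjusted p above 0.05 in DESeq2 (0.52) and in 4 of the 6 fits that left out a library, with estimates of 0.39 to 0.50. Eln was at 1061, 1286 and 871 CPM in the controls and 1817, 1447 and 2043 CPM in the mutants. Prg4 (lubricin) had a log2 fold change of -0.55 (SE 0.36, edgeR adjusted p = 0.779). Without control replicate 3 the higher genes numbered 2, beside 1.76% of all genes, and the median of the list was 0.33. In that fit Sfrp2 was at 1.20, Eln at 0.60 and Igfbp5 at 0.50, each with an unadjusted p above 0.05. The same held for Sfrp2 without control replicate 2 (1.22), Eln without mutant replicate 3 (0.61) and Igfbp5 without mutant replicate 2 (0.57).

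Among 7 other tendon transcription factors, 2 were higher at an unadjusted edgeR p under 0.05 and 0 lower, beside 2.89% and 4.32% of all genes, with a median of 0.34. Egr1, an immediate early factor that also drives tendon collagen, was at 45.1, 13.1 and 18.8 CPM in the controls and 200.5, 43.8 and 51.1 CPM in the mutants, with the highest value in mutant replicate 1 (1.94, SE 0.60, edgeR unadjusted p = 0.00923, adjusted p = 0.676), and without that library the estimate was 0.92 (edgeR unadjusted p = 0.0607). With no filter the edgeR adjusted p of Egr1 was 5.19e-05, and with the replicate block its unadjusted p = 1.89e-05 and adjusted p = 0.127. Six2 was below 10 CPM in every library (2.22, SE 0.69, edgeR unadjusted p = 0.00902, adjusted p = 0.676), and without mutant replicate 1 it was 1.76 with an unadjusted p of 0.0589. Of 14 tested genes of growth factor input to tendon and annulus, Igf1 was higher, with 39.9, 22.0 and 30.0 CPM in the controls and 65.1, 73.2 and 54.2 CPM in the mutants (1.07, SE 0.23, edgeR unadjusted p = 0.000809, adjusted p = 0.545), and its adjusted p was 0.00139 with no filter and 0.0136 in DESeq2. Tgfb2 was lower (fell by 0.51 on the log2 scale, SE 0.19, edgeR unadjusted p = 0.0227, adjusted p = 0.676), and its unadjusted p was above 0.05 in DESeq2 (0.0520) and in 4 of the 6 fits that left out a library, where the estimates ran from -0.49 to -0.36. All mutants were above all controls for 4 of the 14, Igf1, Tgfb3 (0.35), Smad3 (0.29) and Etv5 (0.21), beside 5.45% of all genes, and below for Tgfb2, beside 5.96%. Tgfb3 and Smad3 had an unadjusted p above 0.05, but without control replicate 1 it was 0.0384 and 0.0448, and in limma-voom it was 0.0420 for Smad3. None of the 6 nearest relatives of the members (Cnmd, Tcf15, Irx1, Irx2, Irx3 and Irx5) had an unadjusted edgeR p under 0.05.

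**Figure D4:**
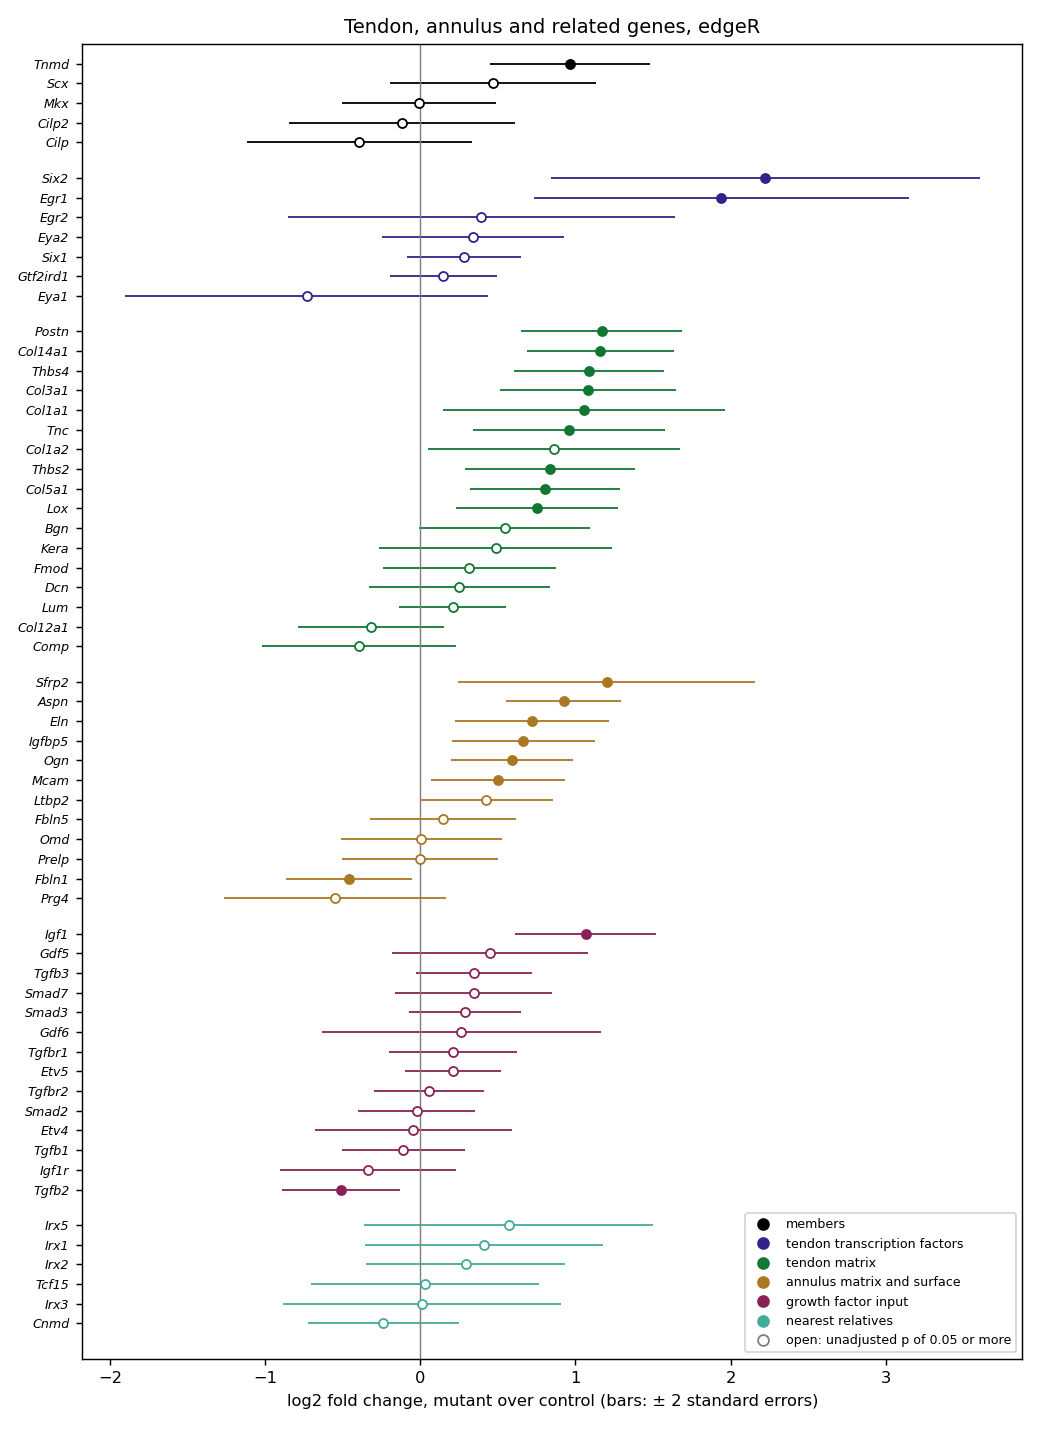
Log2 fold changes of mutant over control (edgeR, bars of ± 2 SE) for the members and 5 related gene groups, filled where the unadjusted p was under 0.05. Among the members only Tnmd is filled, with 9 of 17 tendon matrix genes filled to the right and 0 to the left.

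Markers of other cells moved in part with these groups, and the counts at an unadjusted edgeR p under 0.05 are to be read beside 2.89% of all genes higher and 4.32% lower. Loose connective tissue fibroblast genes summed to 220 to 235 CPM in the controls and 236 to 363 CPM in the mutants, with 1 of 7 (Dpt) higher at an unadjusted edgeR p under 0.05. Of the 7, 5 had a positive log2 fold change, with a median of 0.37. Bone genes summed to 866 to 1358 CPM in the controls and 940 to 1226 CPM in the mutants, with Bglap and Bglap2 higher and 2 of 9 lower. Of 13 chondrocyte genes 0 were higher and 3 lower, with a median of -0.30. Red blood cell genes summed to 33.9 to 295 CPM in the controls and 185 to 380 CPM in the mutants, with all 5 tested genes positive and Slc4a1 higher (2.68, edgeR unadjusted p = 0.00114, adjusted p = 0.553). Of 6 macrophage genes 5 were positive, with a median of 0.41 and Cd68 higher (0.74, edgeR unadjusted p = 0.0401, adjusted p = 0.684), and they summed to 50.3 to 68.6 CPM in the controls and 61.4 to 120 CPM in the mutants. Of 6 endothelium genes 4 were positive and 0 had an unadjusted p under 0.05, with sums of 112 to 214 CPM in the controls and 169 to 194 CPM in the mutants. No gene of the fibroblast and bone lists was at 0 in any library. Of 14 tested muscle genes 11 were lower, with control replicate 1 the high library, and the muscle factor Myod1 was at 0 in 4 of 6 libraries. The part of these cells in the values of Tnmd and the tendon matrix genes was not tested.

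The members and the genes nearest to them were compared by their pattern over the libraries. By Pearson correlation of log2 CPM over the 6 libraries, given as a description over points that share library depth and composition, the nearest genes were Dgkz (0.995), Mrps14 (0.992) and Zfp467 (0.979) for Scx and Zbtb21 (0.995), Raph1 (0.988) and Igf2r (0.986) for Mkx. For Tnmd they were Ano1 (0.994), Fbxo22 (0.991) and Adamts4 (0.987). For Cilp they were Chst5 (0.992), Apoa1bp (0.987) and Eif3h (0.982), and for Cilp2 Itfg3 (0.990), Tulp2 (0.982) and Fam3a (0.982). Among the members themselves the correlation was 0.80 for Scx and Cilp2, 0.76 for Cilp and Cilp2 and -0.81 for Mkx and Cilp, the largest in size of the 10 pairs. Ano1, a chloride channel, was at 30.3, 28.4 and 29.8 CPM in the controls and 34.3, 53.0 and 41.1 CPM in the mutants, and Adamts4, an aggrecanase, was below 10 CPM in every library.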

How the data were processed

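Poly(A) RNA of 6 IVD pools was sequenced, and the authors deposited counts of reads per gene symbol for each library, without normalization. The labels name STAR 2.5.3a, HTSeq and DESeq2 with mm10, and the methods name Cutadapt, HISAT2, StringTie and Ballgown. The strand setting is not given in the sources used here. The authors' table of their own comparison was not used. Counts on genes were 40.44% to 44.16% of reads per library, and reads assigned to no gene feature were 39.43% to 43.33%. Counting error at the lowest member count (259, Tnmd) was 6.21%, which covers counting error only.

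Counts were scaled by TMM, filtered with filterByExpr (count minimum 10) and tested with edgeR 4.0.16 (R 4.3.3, quasi-likelihood test, Benjamini-Hochberg adjustment over 16152 genes). SE is the log2 fold change divided by the square root of F. Ratios within libraries had 0.5 added to each count and a two-sided exact permutation test. RPKM is CPM per kilobase. Alternatives were a replicate block, DESeq2 1.42.0, RLE size factors, no filter, limma-voom 3.58.1 and leaving out each library. Named genes were the members, list genes, overlapping genes and the 3 most correlated genes of each member. The members and lists were chosen with earlier results of these data known.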

Additional observations from a re-analysis of the deposited data

How the results depend on the processing

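Of the members, Scx and Tnmd kept a positive log2 fold change under all 11 alternatives. Mkx changed sign, to 0.0087 with no filter on low counts, 0.0133 with the replicate block, 0.0078 in DESeq2 and 0.0495 in limma-voom, and ranged from -0.19 to 0.30 with a library left out, where the first mutant pool left out gave 0.16, the third 0.04 and control replicate 1 gave 0.30. Cilp ranged from -0.69 to 0.000113 with a library left out. The latter was the value without control replicate 2, and with an SE of 0.34 it gives no direction. Cilp2 ranged from -0.39 to 0.35, 0.35 being the value without control replicate 2, and it was 0.03 and 0.04 when mutant replicate 1 or 2 was omitted. The log2 ratio of Cilp to Cilp2 ranged from -0.46 to 0.0044, the latter without control replicate 3. For these changes in the estimates the cause was not tested beyond the libraries and settings named. Tnmd had a log2 fold change of 0.98 with no filter, where its adjusted p passed the threshold, and 0.62 to 1.21 with a library left out. Members with an adjusted p under 0.05 then numbered 1, and 0 under the other 10 alternatives. Members with an unadjusted p under 0.05 numbered 2 with no filter, and 1 to 2 with a library left out, with 2 without control replicate 1, control replicate 2 or mutant replicate 2. Over all genes that share was 8.62% with no filter and 14.1%, 5.59% and 9.76% in these 3 fits, in place of 7.21%. Tendon matrix genes higher at that threshold numbered 6 to 11 and annulus genes 2 to 6 with a library left out (2 without control replicate 3). Over all genes 1.76% to 5.25% were higher in these fits, with 2.24% in the fit without mutant replicate 1 that gave 11. The count of tendon matrix genes was chosen after seeing the data. Genes with an adjusted p under 0.05 numbered 245 with no filter, 52 in DESeq2, 31 without control replicate 1 and 0 or 1 under the others.

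Libraries that share a replicate number had correlations of their deviations of 0.16, -0.13 and 0.10. Those of libraries with different numbers ran from -0.26 to 0.18. With 3 libraries per group, these values cannot decide whether the numbers pair the samples. With the replicate block, the log2 fold change was 0.89 for Tnmd, and 1002 genes had an unadjusted p under 0.05 in place of 1164.

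With 3 pools per group, the interval of 2 SE spanned about 1 log2 unit or more for every member. The lowest member count was 259 (Tnmd), with a counting error of 6.21%, and the part of depth in these intervals was not tested.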

Other observations

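The libraries differed in how long and short genes stood to each other, a measure chosen after the values were seen. The median log2 deviation of genes of 5000 bases or more minus that of genes under 1500 bases was 0.13, -0.20 and -0.04 among controls (in replicate order) and 0.01, 0.18 and -0.06 among mutants. Mkx was highest in control replicate 1 and mutant replicate 2, where the measure was highest, and Cilp was lowest in these libraries and highest in control replicate 2, where the measure was lowest. The coding transcripts of Mkx and Cilp have 3650 and 4153 bases, which is in neither length class of this measure. Tnmd, with a short transcript of 1353 bases, was also highest in mutant replicate 2. Scx was highest in mutant replicate 3 and Cilp2 in control replicate 2. The part of this length measure in the members' values was not tested. Lengths were at hand for 83.1% of the genes tested.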
